A study of Sus scrofa with 6 samples.

Results

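Fragments of the mitochondrial genome were examined in MeDIP-seq libraries of pig skeletal muscle. They were taken as all deposited fragments placed on chrM, which were 189286 of 237630679 fragments over 6 libraries. The longissimus dorsi muscle (LDM) came from female Jinhua pigs, 3 of them young (0.5 years old) and 3 middle-aged (MA, 7 years old), with 1 library per animal. In MeDIP-seq, sheared DNA is captured with an antibody against methylated cytosine and then sequenced, and the fragments measure what was captured. The labels name no treatment or allele, and age was the factor compared. The coordinates are those of chrM in Sscrofa9.2, as the deposited positions give them. The largest end on chrM was 16969, which was taken as the length of the sequence and could not be compared with the genome build. The sequence was divided into 340 bins of 50 bp, of which the last held 19 bp.

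The mitochondrial genome is a small circular DNA molecule that is present in many copies per cell and is inherited from the mother. It encodes subunits of the respiratory chain together with the ribosomal and transfer RNAs that translate them, and it has a short noncoding control region from which replication and transcription start. Skeletal muscle fibres depend on this genome for oxidative ATP production, and fibre types differ in their content of mitochondria.

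The first question was how much of each library came from chrM at the 2 ages. The MA libraries held 39852, 41815 and 44482 chrM fragments, which were 0.0899%, 0.109% and 0.115% of their fragments. The young libraries held 28997, 16759 and 17381 chrM fragments, which were 0.0668%, 0.0441% and 0.0499%. All MA libraries exceeded all young libraries, and Young 1 stood closest to the MA group.

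The 95% Wilson interval was 0.0890% to 0.0908% in MA 1, the lowest MA library, and 0.0660% to 0.0676% in Young 1, the highest young library. Young 2 had an interval of 0.0435% to 0.0448% and Young 3 one of 0.0492% to 0.0507%. The young libraries therefore differed from each other by more than counting error, which is the only error these intervals cover. With 1 library per animal, differences between animals and between library preparations cannot be told apart.

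The mean share was 0.105% ± 0.0131 (SD, n = 3) in the MA pigs against 0.0536% ± 0.0118 (SD, n = 3) in the young pigs, a ratio of 1.95 (0.96 on the log2 scale). The two-sided exact permutation p was 0.1, the smallest that 3 libraries against 3 can give, and 0.267 after Benjamini-Hochberg adjustment over the 8 age comparisons of single values. Leaving out each library in turn gave log2 ratios from 0.84, without Young 2, to 1.15, without Young 1. No input library without the antibody was analysed here, and the share is taken over all fragments, nearly all of them nuclear. More mitochondrial DNA in the muscle, more mitochondria-rich cells, more capture per molecule and less capture of nuclear DNA therefore cannot be told apart.

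**Figure D1:**
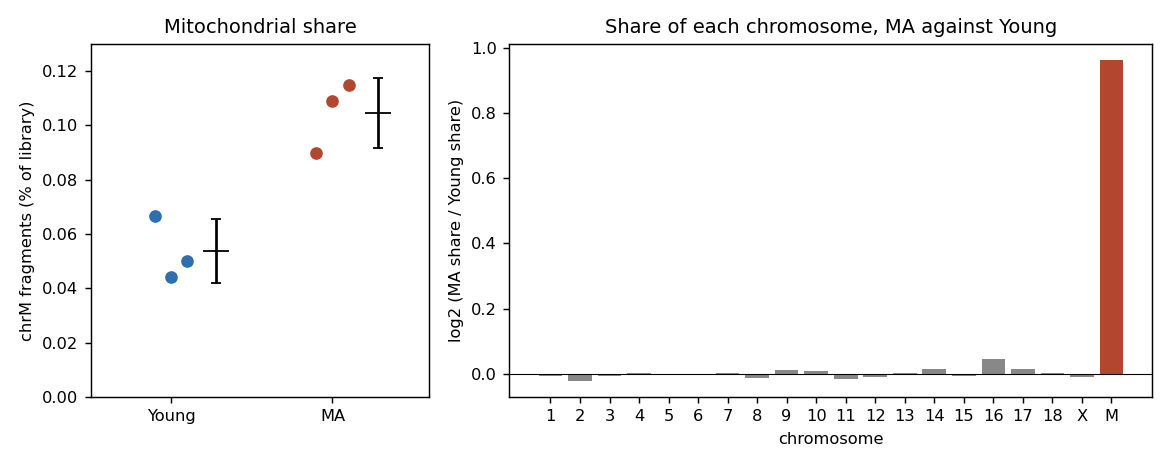
Left, chrM fragments as a percent of all fragments, with 1 point per library and the mean and SD of 3 libraries per group. Right, the log2 ratio of the mean MA share to the mean young share for each chromosome, where chrM reached 0.96 and the 19 nuclear chromosomes lay between -0.02 and 0.04.

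The same ratio was computed for each nuclear chromosome, as a description with no test between chromosomes. The 19 nuclear chromosomes had log2 ratios of MA to young shares between -0.02 (chromosome 2) and 0.04 (chromosome 16). Of these, 1 had groups that did not overlap: chromosome 17 held 3.15% ± 0.0154 of the fragments in the MA pigs against 3.12% ± 0.00829 in the young pigs (SD, n = 3 each, exact permutation p = 0.1). Because shares of a library sum to a fixed total, the 20 values of 1 library are not independent.

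In depth per position, chrM averaged 617, 621 and 664 fragments in the MA libraries against 454, 268 and 267 in the young libraries. The nuclear chromosomes averaged 5.14, 4.26 and 4.31 in the MA libraries against 5.05, 4.54 and 4.02 in the young libraries. Depth on chrM was thus 120.02, 146 and 154 times the nuclear depth in the MA pigs against 89.8, 59.2 and 66.4 times in the young pigs. The groups did not overlap in this ratio, which nearly restates the chrM share and is not a second observation. The depth on chrM sets the precision of the profile: 97.0% to 98.6% of chrM positions had a depth of at least 10 in a library.

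Along the molecule, the depth was strongly uneven in every library. To compare profiles, each bin was expressed relative to the mean chrM depth of its own library. Of the 340 bins, 234 had a mean relative depth below 1, 46 were above 2 and 20 were above 3. The bin at 10401 to 10450 was the most covered, with relative depths of 5.27, 6.04 and 5.95 in the MA libraries against 5.37, 5.46 and 4.78 in the young libraries. The single deepest position lay between 10434 and 10448 in all 6 libraries, at depths of 3295, 3834 and 3998 in the MA pigs against 2470, 1491 and 1292 in the young pigs.

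**Figure D2:**
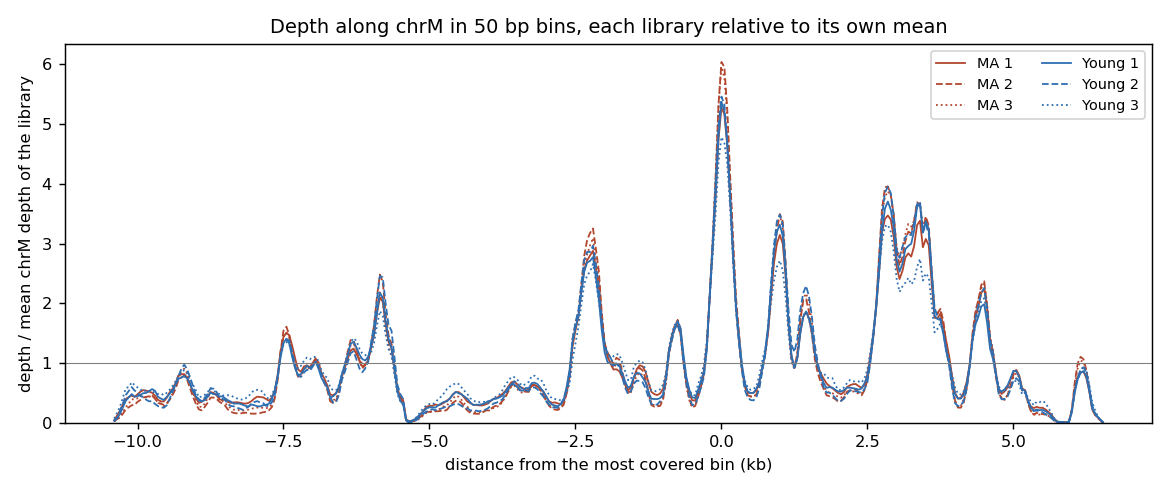
Depth in 50 bp bins of chrM relative to the mean chrM depth of the library (y axis), against the distance from the most covered bin in kb (x axis), with 1 line per library. The tallest peak fell at the same place in all 6 libraries and reached 4.78 to 6.04 times the library mean.

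The most covered 10% of the bins (34 bins) fell into 5 runs of neighbouring bins, and the least covered 10% fell into another 5. The first of the high runs was the 400 bp from 10251 to 10650. Its relative depth was 4.13, 4.61 and 4.54 in the MA libraries against 4.18, 4.26 and 3.84 in the young libraries, so that the groups overlapped. The second was the 350 bp from 13101 to 13450, with 3.10, 3.50 and 3.43 in the MA libraries against 3.23, 3.46 and 2.95 in the young libraries. The third was the 500 bp from 13501 to 14000, with 2.96, 3.29 and 3.34 in the MA libraries against 3.18, 3.27 and 2.44 in the young libraries. Young 3 was the lowest library in each of these 3 runs. The remaining 2 high runs, at 11301 to 11500 and 8051 to 8300, averaged 3.07 and 2.75.

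The circular molecule is written in linear coordinates. The first of the least covered runs lay at their end and the second at their start. No interval was placed across these ends, so depth must fall towards both of them over the length of an interval. The 169 bp from 16801 to 16969 had relative depths of 0.0675, 0.0602 and 0.0643 in the MA libraries against 0.0732, 0.0701 and 0.0842 in the young libraries. Here the MA libraries all lay under the young libraries. In the segment from 16001 to 16969, 18.6% to 23.4% of the intervals of the MA libraries had a single length, 248 bp, described below. In the young libraries it was 25.0% to 32.9%. In the fit without that length this run had no value, so whether the order of the groups holds without it was not tested. The 150 bp from 1 to 150 had 0.123, 0.0585 and 0.0602 in the MA libraries against 0.0848, 0.102 and 0.169 in the young libraries, and the groups overlapped. The first bin alone averaged 0.0366 and the last 0.00744 of the library mean.

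Low coverage was also found away from the ends. The 700 bp from 15751 to 16450 had relative depths of 0.135, 0.0882 and 0.0858 in the MA libraries against 0.114, 0.102 and 0.173 in the young libraries. The other low runs, at 5001 to 5550 and 6201 to 6300, averaged 0.135 and 0.245. Which genes these runs overlap was not analysed here, because no annotation of a mitochondrial sequence of this length was used, and neither were their bases or CpG sites.

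The profiles of the 6 libraries ran closely together. Over the 340 bins, Pearson's r between 2 libraries was 0.984 to 0.998 within an age and 0.989 to 0.997 between ages, and Spearman's rho over all pairs was 0.971 to 0.996. The lowest r, 0.984, was between Young 2 and Young 3. These correlations are across bins that share their sequence and overlapping fragments, and they are given as a description.

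The amount and the profile were then separated by 2 scalings. Scaled to all fragments of the library, the 333 chrM bins with a mean depth of at least 10 were all higher on average in the MA pigs, with log2 differences from 0.22 to 1.29 and a median of 0.84. The median over all 5785411 tested bins of the genome was -0.04. All MA libraries exceeded all young libraries in 282 of the 333 chrM bins, and the same was true of 5.97% of tested bins genome-wide. The opposite order occurred in 0 chrM bins, against 6.87% genome-wide. The 51 chrM bins with overlapping libraries all had a mean relative depth of at most 0.483.

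The chrM bins did not pass the test across the genome. With limma, 0 chrM bins had a Benjamini-Hochberg adjusted p under 0.01 and the smallest was 0.438, while 282 had an unadjusted p under 0.05, all of them higher in the MA pigs. Genome-wide, limma called 0% of bins in either direction, and 2.75% had an unadjusted p under 0.05 and were higher in the MA pigs. No tool other than limma was run. Bins of 50 bp share fragments with their neighbours, so the 282 bins are not separate observations of the 6 animals.

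Segments of 1 kb, in which each fragment was counted once by its midpoint, were also compared. In all 17 segments of chrM the MA libraries exceeded all young libraries, which was true of 7.51% of the tested windows of the genome. The 17 segments all carry the chrM share of their library, so they are not separate observations of the animals. The segment from 1 to 1000 had the smallest ratio, 1.54, with 818, 726 and 830 scaled fragments in the MA libraries against 609, 364 and 568 in the young libraries. The segment from 16001 to 16969 had the largest ratio, 2.10, with 591, 872 and 851 in the MA libraries against 445, 301 and 356 in the young libraries. The limma adjusted p over all windows was 0.112 to 0.568 for these segments, and all 17 had an unadjusted p under 0.05 with higher values in the MA pigs, as did 4.04% of windows genome-wide. None passed the threshold, which 0.00179% of windows passed genome-wide with higher values in the MA pigs.

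**Figure D3:**
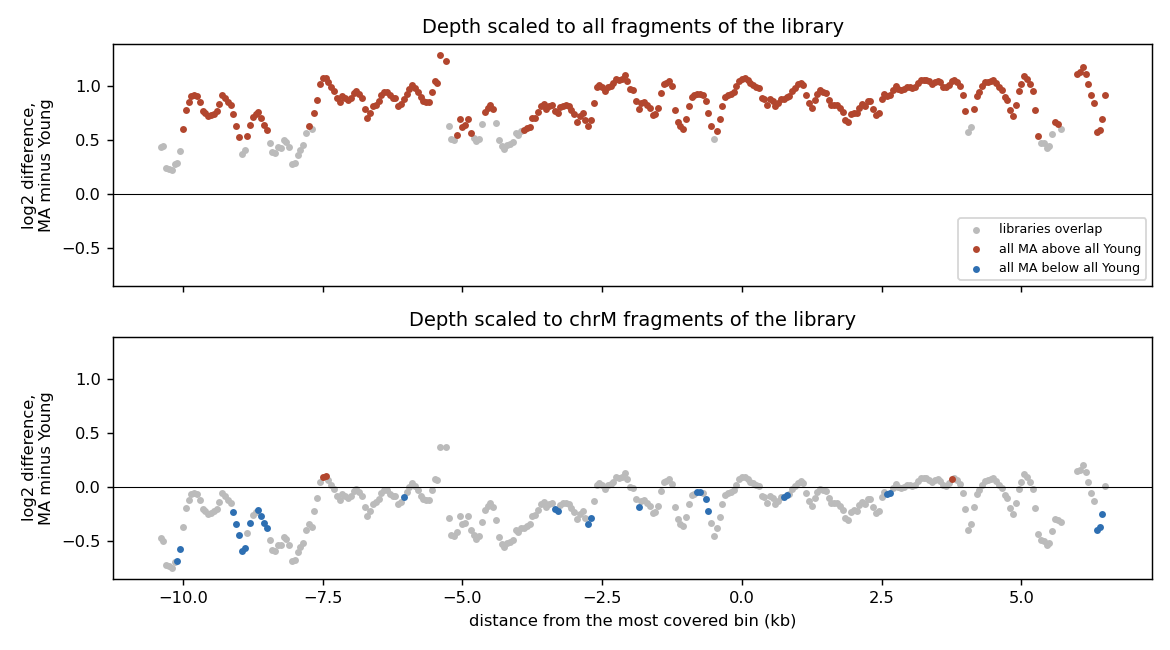
The log2 difference between MA and young pigs in each tested 50 bp bin of chrM (y axis), against the distance from the most covered bin in kb (x axis), with the depth scaled to all fragments in one panel and to chrM fragments in the other. Colours mark bins whose libraries did not overlap between the groups: 282 were higher in the MA pigs on the first scale, and 3 were higher and 29 lower on the second.

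Scaled to the chrM fragments of the library, the difference in the number of chrM fragments is removed, and the depth still carries the length of the intervals, which averaged 256 bp in the MA pigs and 266 bp in the young pigs. On this scale 255 of the 333 bins were lower and 78 higher on average in the MA pigs, with log2 differences from -0.75 to 0.37 and a median of -0.13. The split of signs depended on the centring: scaled to the median bin instead, 186 bins were higher and 147 lower, and the median was 0.03. Scaled to the mean chrM depth, which takes out the mean interval length only, 110 bins were higher and 223 lower and the median was -0.08. With limma, 0 bins (0% of those tested) were called at an adjusted p under 0.01 or 0.05, the smallest adjusted p was 0.659, and 9 bins (2.7% of those tested) had an unadjusted p under 0.05, all lower in the MA pigs. That number changed with the libraries and settings used: it was 75 without MA 1, 44 without Young 2, 16 without Young 3, 4 without MA 3 and 3 without MA 2, and 25 of 317 bins when fragments were counted by their midpoint. It was 14 when scaled to the median bin, 5 without the most frequent interval length and 5 without the 500 bp at both ends. The MA libraries were all higher in 3 bins (0.901% of the 333), at 2901 to 3000 and 14151 to 14200. The MA libraries were all lower in 29 bins (8.71%), which formed 13 runs, and 21 of these bins had a mean relative depth below 1. Scaled to the mean chrM depth, the MA libraries were all higher in 12 bins (3.6%) and all lower in 13 bins (3.9%).

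Of the bins lower in the MA pigs, the 3 with the smallest p were neighbours. They lay near the first position, where the depth also depends on the length of the intervals. At 301 to 350 the relative depth was 0.455, 0.293 and 0.393 in the MA libraries against 0.480, 0.599 and 0.678 in the young libraries (log2 difference -0.68 by limma, adjusted p = 0.659). The neighbouring bins at 251 to 300 and 201 to 250 had log2 differences of -0.69 and -0.75 with the same adjusted p of 0.659 in limma. Without the most frequent interval length, described below, the 3 differences were -0.44, -0.46 and -0.48. In all 3 bins MA 1 was the highest MA library and Young 1 the lowest young library, and the groups overlapped in all but the bin at 301 to 350.

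In the other direction, the bin at 16501 to 16550 had relative depths of 0.754, 0.989 and 0.909 in the MA libraries against 0.728, 0.760 and 0.719 in the young libraries (log2 difference 0.20 by limma, adjusted p = 0.659). MA 1 fell within the range of the young libraries there. The bins at 16551 to 16600 and 8301 to 8350 differed by 0.14 and 0.13 on the log2 scale. Counted by midpoint, the 3 differences were 0.55, 0.08 and -0.12, and with single libraries left out they ranged from 0.13 to 0.29, 0.07 to 0.24 and 0.08 to 0.19. Scaled to the median bin, they were 0.36, 0.30 and 0.29. Over intervals of 200 to 300 bp alone, the bins at 16501 to 16550 and 16551 to 16600 had 0.12 and 0.06.

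The high runs described above had log2 differences of 0.05, 0.00424 and 0.06 on the chrM scale, in the order given. The low runs at 16801 to 16969, 1 to 150 and 15751 to 16450 had -0.21, -0.57 and -0.36, with no bin called by limma in any of them. These values depended on the centring: scaled to the mean chrM depth, the high runs had 0.11, 0.06 and 0.12, and scaled to the median bin they had 0.21, 0.16 and 0.22, where the low runs at 16801 to 16969 and 15751 to 16450 had -0.05 and -0.20. Single libraries also moved them. Without Young 3 the high runs turned to -0.01, -0.07 and -0.09, and the second of them was also negative without MA 2 (-0.02) and without MA 3 (-0.01). The run at 1 to 150 had -0.25 without Young 3 and -0.91 without MA 1, and the run at 15751 to 16450 had -0.15 and -0.59 in the same order. Without the most frequent interval length, the run at 1 to 150 had -0.26 and that at 15751 to 16450 had -0.40. The run at 16801 to 16969 had no value in that setting. There, 330 bins reached the mean depth of at least 10, against 333 with all lengths.

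The tested bins were also divided by their mean depth into 10 classes of 33 or 34 bins, and the depth scaled to all fragments was compared in each. In the least covered class it was 110, 82.2 and 89.1 in the MA libraries against 76.8, 42.5 and 74.7 in the young libraries, a ratio of group means of 1.45. In the most covered class it was 1786, 2316 and 2430 in the MA libraries against 1390, 978 and 882 in the young libraries, a ratio of 2.01. The ratio was lowest in class 2, 1.42, and increased at each step from there. Class 2 was also the only class in which the libraries of the 2 ages overlapped.

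**Figure D4:**
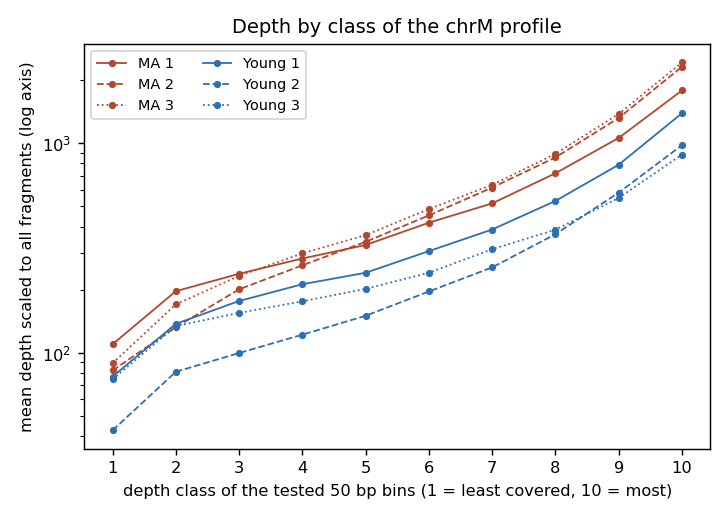
Mean depth scaled to all fragments (log axis) in each of the 10 depth classes of the tested 50 bp bins of chrM, ordered from least to most covered over both ages together, with 1 line per library. The ratio of the MA mean to the young mean was 1.45 in class 1 and 2.01 in class 10, and the groups overlapped in class 2.

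The libraries of the 2 ages overlapped in the gradient itself. The log2 ratio of depth in the most covered class to that in the least covered class was 4.03, 4.82 and 4.77 in the MA libraries against 4.18, 4.52 and 3.56 in the young libraries. The mean was 0.45 higher in the MA pigs (two-sided exact permutation p = 0.3). Without Young 3 the difference was 0.19, and without MA 1 it was 0.71, so that single libraries moved this value by more than 1.5 times.

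Unevenness over the whole molecule also overlapped between the ages. The coefficient of variation of depth over the bins was 0.922, 1.07 and 1.05 in the MA libraries against 0.953, 1.02 and 0.806 in the young libraries. The means were 1.01 ± 0.0806 and 0.927 ± 0.110 (SD, n = 3 each, exact permutation p = 0.4). The most covered 10% of all bins held 32.3%, 36.0% and 35.6% of chrM depth in the MA libraries against 33.4%, 34.8% and 28.9% in the young libraries (exact permutation p = 0.4, n = 3 each). The difference of 2.24 percentage points was 0.531 without Young 3 and 3.44 without Young 2. On the nuclear chromosomes, the most covered 10% of 1 kb windows held 42.5% to 46.0% of the fragments of a library. These windows were chosen within each library and by fragment number, whereas the chrM bins were chosen by depth over all libraries. The chrM and nuclear shares are therefore not directly comparable.

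The mean length of the deposited intervals on chrM was 263, 252 and 253 bp in the MA libraries against 266, 272 and 260.4 bp in the young libraries. The means of 256 ± 5.87 and 266 ± 5.72 bp (SD, n = 3 each) gave an exact permutation p of 0.2, with MA 1 above Young 3. The nuclear intervals of the same libraries were nearly as long: the chrM mean minus the nuclear mean was 0.183, 0.839 and 1.12 bp in the MA libraries against 2.14, 1.28 and -1.06 bp in the young libraries. With the chrM share counted over intervals of 200 to 300 bp alone, the log2 ratio between the ages was 0.96.

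A single length, 248 bp, was the most frequent on chrM and on the nuclear chromosomes of every library. It made up 3.91%, 3.53% and 3.46% of chrM intervals in the MA libraries against 3.97%, 5.38% and 4.57% in the young libraries. On the nuclear chromosomes it made up 14.5% to 15.8% of intervals. The share was lower on chrM in 6 of 6 libraries, with a mean difference of -10.7 percentage points (SD 0.384) and a two-sided exact sign-flip permutation p of 0.03125, the smallest 6 libraries allow, and 0.0469 after adjustment over 3 such comparisons.

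**Figure D5:**
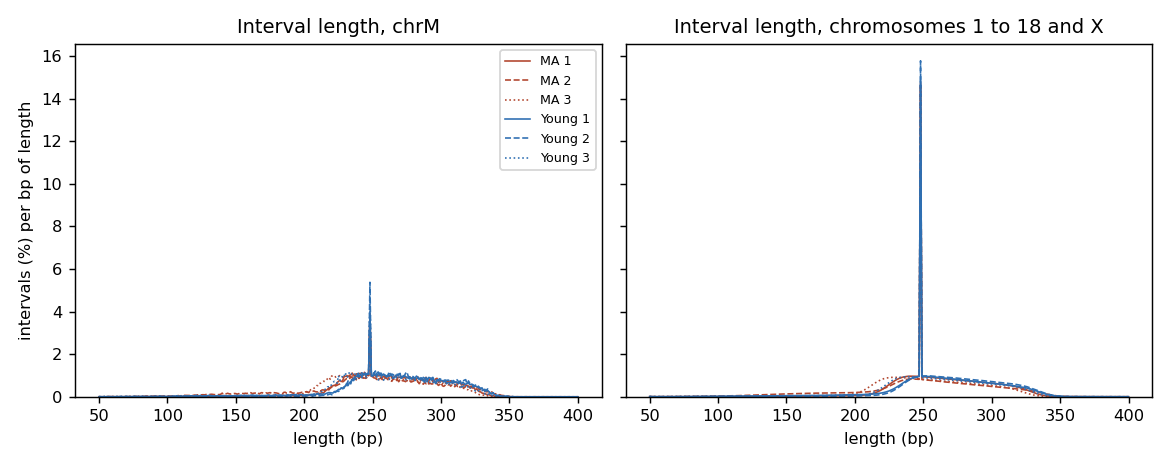
Percent of intervals at each length in bp, on chrM in one panel and on the nuclear chromosomes in the other, with 1 line per library. The peak at 248 bp held 3.46% to 5.38% of chrM intervals and 14.5% to 15.8% of nuclear intervals.

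Along chrM, the share of this length differed between segments. In the segment from 16001 to 16969 it made up 23.4%, 18.6% and 19.8% of the intervals of the MA libraries, and 25.0%, 31.5% and 32.9% of those of the young libraries. In the segment from 1 to 1000 it made up 10.8%, 10.7% and 13.3% in the MA libraries against 12.9%, 27.5% and 16.2% in the young libraries. These shares were higher than in any other segment of the same library. It made up 7.41% to 9.79% of a library's intervals in the segment from 15001 to 16000, 5.17% to 14.5% in that from 2001 to 3000 and 4.35% to 16.4% in that from 5001 to 6000, where Young 2 was the highest library in the last 2. In the segment from 10001 to 11000, which holds the deepest position, it made up 2.06% to 2.85%. In number over all 6 libraries, the segment from 16001 to 16969 held 793 such intervals and the deep segment from 13001 to 14000 held 773. Between the ages the share on all of chrM was lower in the MA pigs, with 3.63% ± 0.240 against 4.64% ± 0.706 (SD, n = 3 each). The groups did not overlap (exact permutation p = 0.1, adjusted 0.267). The same order held on the nuclear chromosomes, so it was not particular to chrM. There the share was 14.54%, 14.74% and 14.51% in the MA libraries against 14.87%, 15.77% and 14.79% in the young libraries. That nuclear difference between the ages was not tested. Without Young 2 the difference on chrM was -0.636 percentage points, from -1.005 with all libraries.

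Intervals with the same start and end as another interval of the library were rarer on chrM than on the nuclear chromosomes. They made up 1.18%, 1.04% and 1.06% of chrM intervals in the MA libraries against 0.873%, 0.889% and 0.633% in the young libraries. On the nuclear chromosomes they made up 2.28%, 2.04% and 1.76% in the MA libraries against 1.86%, 2.215% and 2.01% in the young libraries. The share was lower on chrM in 6 of 6 libraries (difference -1.08 percentage points, exact sign-flip permutation p = 0.03125, adjusted 0.0469). No interval on chrM occurred more than 3 times in a library.

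The share of repeated intervals on chrM was higher in the MA pigs, 1.09% ± 0.0760 against 0.798% ± 0.143 (SD, n = 3 each, exact permutation p = 0.1, groups not overlapping). The MA libraries also held more chrM intervals. After each library was thinned once, at random, to 16759 chrM intervals, the size of the smallest, the share was 0.501%, 0.442% and 0.465% in the MA libraries against 0.465%, 0.889% and 0.585% in the young libraries, and the difference changed sign (-0.177 percentage points).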

How the data were processed

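DNA from the LDM of 6 female pigs was sonicated, captured with an anti-methylcytidine antibody and sequenced in paired-end reads. The authors filtered the reads and aligned them to Sscrofa9.2 with SOAP2 (version 2.21, up to 4 mismatches), and describe removing ambiguous reads and counting reads at the same location once. The deposited values are positions, 1 fragment per line with its chromosome and both end positions, and neither counts nor a normalized signal. A step that keeps 1 read per location can limit deep sequence such as chrM, and its effect on chrM was not tested. Repeated intervals were nevertheless present and were kept. The smallest deposited start was 1, and whether starts count from 0 or 1 is not given in the sources used here. Positions were read with the start counted from 0, so an edge may be off by 1 base.

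Libraries were grouped by the age in their labels, and the 3 pigs of a group are biological replicates. The libraries held 34801285 to 44341673 fragments. Depth was averaged in bins of 50 bp and scaled to all fragments or to chrM fragments of the library, and each fragment was assigned by its midpoint to 1 window of 1 kb. Values were tested as log2(depth + 1) with limma 3.58.1 in R 4.3.3 (eBayes with a trend) where the mean depth was at least 10, with p adjusted by Benjamini-Hochberg and called under 0.01. The all-fragment scale was fitted over the whole genome. Single values per library were compared by two-sided exact permutation tests over the 20 assignments of libraries, and chrM with the nuclear chromosomes by exact sign flips. Counting and summaries used Python 3.11.15 with numpy 2.4.6, pandas 2.3.3, scipy 1.17.1 and matplotlib 3.10.9. The scripts were tested on simulated data.

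The text names the 3 runs with the highest and the 3 with the lowest depth, the 3 bins in each direction with the smallest p on the chrM scale (no bin was called), and the first and last bin. Other runs and bins, and the comparisons of the single most frequent length and of the 10 depth classes, were chosen after their values were seen. The sign-flip comparisons of chrM with the nuclear chromosomes were not planned. That of repeated intervals was not rerun without the most frequent length. The region, its scalings and the tests were chosen with earlier results of these data known. A comparison by mitochondrial gene class was planned and not run, since the annotation at hand is of another assembly, whose mitochondrial sequence has another length than the largest end found here. PCR copies are not independent molecules, so intervals cover counting error alone.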

Additional observations from a re-analysis of the deposited data

How the results depend on the processing

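Of 370 alternative values, 13 differed in sign from the reported one. They covered identical intervals counted once, intervals of 200 to 300 bp, the most frequent length left out, other bin sizes, pseudocounts, depth minimums and scalings, the ends left out, a replicate block, and each library left out. Scaling to the mean chrM depth was added after seeing the data. The number of chrM bins called by limma was 0 under every alternative run on either scale. The mitochondrial share stayed higher in the MA pigs throughout, at 0.84 to 1.15 on the log2 scale.

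The difference between the ages in chrM minus nuclear length, -0.0732 bp, changed sign to 1.19 bp without the most frequent length, and ranged from -0.997 to 0.606 bp with each library left out. The difference in repeated intervals became -0.177 percentage points after thinning. The lower share of the 248 bp length on chrM held at -10.8 to -10.6 percentage points with each library left out, where 5 libraries cannot give an exact sign-flip p under 0.0625. The second of the named high runs also changed sign without the most frequent length, to -0.00468 on the log2 scale. The first bin, at -0.48, had -0.08 without Young 3, -0.76 without MA 1 and -0.01 without the most frequent length. Leaving out Young 3 brought the difference in the coefficient of variation to 0.0269, from 0.0871. It was 0.133 without MA 1 and 0.134 without Young 2.

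Deviations of same-numbered libraries from their group means correlated at -0.217, 0.0762 and -0.189 over 1 kb windows. Over chrM bins they correlated at -0.193, 0.535 and -0.581. So few libraries cannot show whether the replicate numbers pair the animals. With the number as a replicate block, the share differed by 0.98 on the log2 scale (exact sign-flip p = 0.25, the smallest 3 pairs allow), calls stayed at 0, and not every library correlated best with its own number. The alternatives for mitochondrial gene classes were not run. With 3 libraries a group, a single value cannot go below p = 0.1 in the exact permutation test.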
